A study of Homo sapiens with 4 samples.

Results

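RNase H enzymes and the nucleases and helicases that act on R-loops were followed here in HCT116, a human colon carcinoma line, with and without an intact TOP3B gene. The genes were chosen by name: 8 were listed, 6 of them (RNASEH1, RNASEH2B, RNASEH2C, AQR, PIF1 and RTEL1) were found among the 35820 rows of the count table, and RNASEH2A and XRN2 are not analysed here. All 6 passed the filter on low counts, together with 12269 genes in all. RNA was measured in 4 libraries: 2 of wild-type cells (WT) and 2 of clone E2-4, in which a CRISPR guide was aimed at exon 2 of the topoisomerase gene TOP3B (knockout, KO). Both groups are untreated HCT116 cells in the same medium, and the KO group is 1 clone set against its parental line, so clone and genotype cannot be told apart. Whether libraries of one genotype were grown as separate cultures is not stated, so p-values describe only the spread between these libraries, which may be technical.

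R-loops are stretches in which a nascent RNA pairs again with its DNA template and leaves the other DNA strand single. Negative supercoiling behind RNA polymerase favours them, and topoisomerases such as TOP3B relax it. Once formed, the RNA of the hybrid can be cut by RNase H enzymes, unwound by helicases, or degraded from a free end. RNASEH1 encodes a single-chain RNase H that works in the nucleus and in mitochondria. RNASEH2B and RNASEH2C encode the non-catalytic subunits of the RNase H2 trimer, which also removes single ribonucleotides from DNA. AQR encodes Aquarius, a helicase of the spliceosome's intron-binding complex whose depletion is known to raise R-loops. PIF1 and RTEL1 encode DNA helicases that open G-quadruplexes and D-loops, the former also in mitochondria and the latter at telomeres and replication forks.

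Libraries held 10450048 to 16143634 estimated counts in genes. Levels below are in CPM, counts scaled by the library size and its TMM factor, and 3 counts, the limit that a count of 0 allows for counting error alone, equal 0.176 to 0.271 CPM. TOP3B itself stood at 57.1 and 66.5 CPM in WT and at 43.9 and 54.7 CPM in KO (log2 change of -0.32 with SE 0.17, adjusted p = 0.522 by edgeR). Since an edit in exon 2 need not remove the RNA, the genotype cannot be read from these values. Of the markers of colon epithelium, 8 of 9 were tested and their summed level was 2158 to 2619 CPM in WT and 1471 to 1543 CPM in KO, while VIL1 was at or near 0. Most of this sum was KRT19, a keratin, which had a log2 fold change of -0.80 (adjusted p = 0.293 by edgeR and 0.0029 by DESeq2). Of the 8 markers 5 lay lower in both KO libraries, beside 23.5% of all tested genes. At an unadjusted edgeR p under 0.05, 4 of 8 were lower, beside 6.21% of all tested genes. KRT18, another keratin, had a log2 fold change of 0.41 (adjusted p = 0.662 by edgeR) with overlapping groups. The summed level of 4 leukocyte markers was 0 in all libraries, that of 5 fibroblast markers at most 1.72 CPM and that of 3 endothelial markers at most 0.0819 CPM. The part of the epithelial difference in the results below was not tested.

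None of the 6 genes passed the test between KO and WT. By edgeR's quasi-likelihood test 1 of 12269 genes passed at an adjusted p under 0.05 (0.00815%), and by DESeq2 187 of 12899 did (1.45%), with 0 of the 6 in either. At an unadjusted p under 0.05 edgeR gave 1 of the 6, PIF1, where 11.2% of all tested genes had such a p; by DESeq2 PIF1 had an unadjusted p of 0.0231. Both KO libraries lay above both WT libraries for PIF1 and RTEL1, against 23.5% of all genes, and below them for AQR, against 23.5%; RNASEH1, RNASEH2B and RNASEH2C overlapped between groups. That is 3 of 6 without overlap, beside 47% of all tested genes. The log2 fold changes of the 6 ran from -0.30 to 0.96 with a median of 0.16, beside a median of -0.01 over all tested genes. This median was 0.48 without WT replicate 1 and -0.16 without WT replicate 2.

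**Figure D1:**
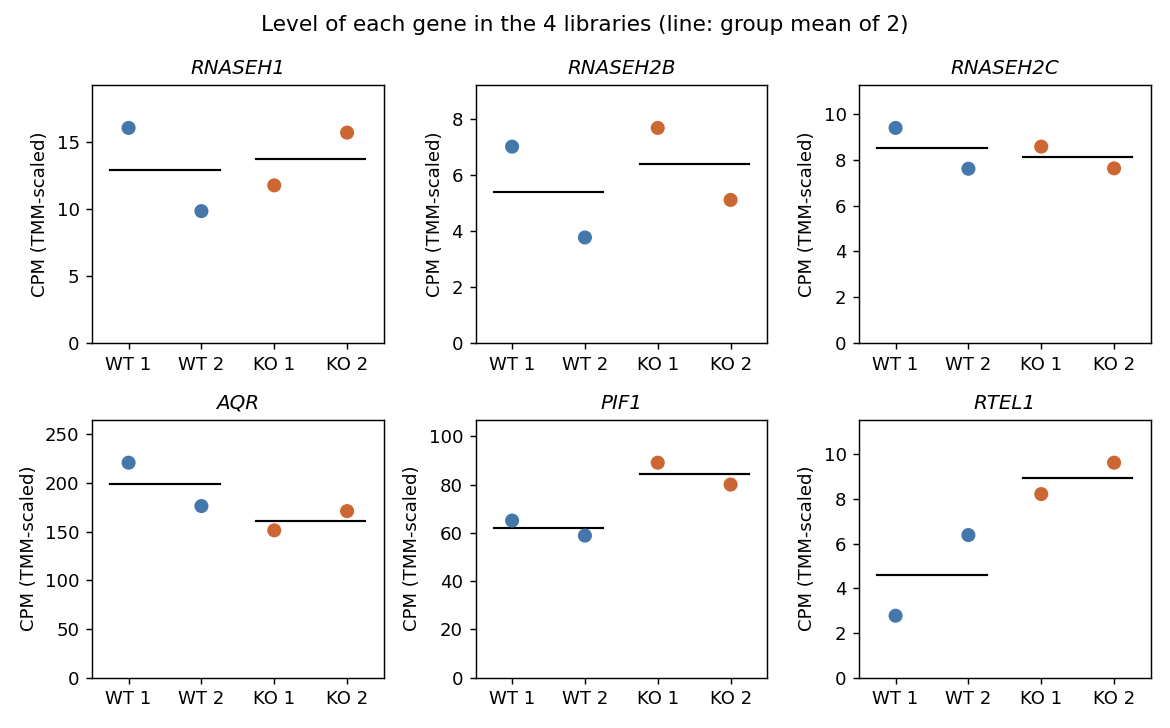
Level of each of the 6 genes in CPM after TMM scaling (vertical axes, starting at 0) in the 2 WT libraries (blue) and the 2 KO libraries (orange); the line is the mean of a group. PIF1 and RTEL1 lie higher in both KO libraries and AQR lower, while the groups overlap for the 3 RNase H genes.

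PIF1, the helicase, had the smallest p of the group. It stood at 65.1 and 58.9 CPM in WT (replicates 1 and 2, in this order throughout) and at 89.1 and 80.0 CPM in KO. Both KO values lay above both WT values, and the libraries of each group were close to one another, 0.145 apart in WT and 0.155 in KO on the log2 scale, where the median gene was 0.281 and 0.221 apart. The group means were 62.0 ± 4.41 and 84.6 ± 6.41 CPM (SD, n = 2 each), a ratio of 1.36 with a 95% interval of 1.08 to 1.72. On the log2 scale edgeR gave 0.45 with SE 0.13 (adjusted p = 0.380) and DESeq2 gave 0.45 with SE 0.20 (adjusted p = 0.385). It stayed between 0.37 and 0.61 under the 17 alternative settings, none of which brought it past the threshold (adjusted p from 0.247 to 1). Of all tested genes, 68.9% had a smaller absolute log2 fold change. The difference was thus larger than the spread between replicates of PIF1 but did not pass after adjustment over all genes.

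The bases in front of the PIF1 start are shown because PIF1 was the 1 member whose interval left out 0. They are the 250 bases upstream of the RefSeq start in GRCh38.p14, at chr15:64825648-64825897 on the minus strand. Capitals mark the letters TTTGAA (the core of the cell cycle homology element) and CCAAT, a box bound by NF-Y, each searched on both strands, so that a CCAAT on the other strand reads ATTGG.
PIF1: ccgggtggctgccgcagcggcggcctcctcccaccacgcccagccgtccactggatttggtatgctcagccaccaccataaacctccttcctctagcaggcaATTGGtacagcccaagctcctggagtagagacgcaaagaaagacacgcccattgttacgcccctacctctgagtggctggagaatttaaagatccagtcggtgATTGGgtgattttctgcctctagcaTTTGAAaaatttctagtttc
TTTGAA was found once, 20 to 15 bases before the start, and CCAAT was found in the reverse orientation at 148 to 144 and at 45 to 41 bases before it. The 3 matches do not overlap. Over 34788 upstream windows of the same length in the RefSeq table, 13.3% held TTTGAA and 32.0% held CCAAT on either strand. Of the windows of the other members, those of RNASEH1, RNASEH2C, AQR and RTEL1 held neither and both of RNASEH2B held CCAAT. The letters GGGCGG, a GC box found in 42.6% of windows, were absent from the PIF1 window and stood 4 times in that of RNASEH1. They stood once in the AQR window, in 1 of the windows of RNASEH2B and in 1 of those of RTEL1 (chr20:63658062-63658311). The RNASEH2C window held none. The E2F-type letters TTTCCCGC, TTTGGCGC, TTTCGCGC and TTTGCCGC (1.39%, 0.549%, 0.428% and 0.489% of windows) were in none of the members' windows. A match describes the letters only, and no binding was measured.

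RTEL1, the telomere and fork helicase, had the largest fold change of the 6 and the least certain level. It received 36 and 78 counts in WT against 91 and 164 in KO, or 2.77 and 6.39 CPM against 8.22 and 9.63 CPM. The lowest library was WT replicate 1, and WT replicate 2 stood closer to both KO libraries than to it. The means were 4.58 ± 2.56 and 8.93 ± 0.994 CPM (SD, n = 2 each), and the ratio of 1.95 had a 95% interval of 0.868 to 4.39 (log2 change of 0.96 with SE 0.46, adjusted p = 0.497 by edgeR and 0.699 by DESeq2). Without WT replicate 1 the log2 fold change was 0.49 (adjusted p = 0.789 by edgeR), and without WT replicate 2 it was 1.70 (adjusted p = 0.0811 by edgeR). Each of these fits has 1 WT library, which is assumed to vary as the KO pair does. The WT libraries were 1.19 apart on the log2 scale.

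The RTEL1 row shares most of its sequence with a second row. RTEL1-TNFRSF6B is a readthrough gene that joins RTEL1 to the decoy receptor gene TNFRSF6B behind it. In GENCODE 29 transcripts, 67.1% of the 6688 distinct 31-base words of RTEL1 also occur in RTEL1-TNFRSF6B, so that a read from a shared part can be assigned to either. In RefSeq both rows have a start at the same base. In GENCODE 29 the bases that follow this start were found near the start of an RTEL1 transcript, but of no RTEL1-TNFRSF6B transcript. The 250 bases before the RefSeq start, at chr20:63657560-63657809 on the plus strand (GRCh38.p14), are shown because they are 1 sequence for both rows. None of the letters above occur in them.
RTEL1 and RTEL1-TNFRSF6B: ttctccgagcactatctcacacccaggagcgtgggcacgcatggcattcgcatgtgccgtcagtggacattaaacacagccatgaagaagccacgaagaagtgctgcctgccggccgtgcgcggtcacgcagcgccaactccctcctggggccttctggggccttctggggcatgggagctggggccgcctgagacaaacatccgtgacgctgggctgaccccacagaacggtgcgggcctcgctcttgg
The readthrough row held most of the counts. It had 478 and 439 counts in WT and 402 and 618 in KO, which is 36.8 and 36.0 CPM against 36.3 and 36.3 CPM, and its log2 fold change was -0.0035 (SE 0.14; adjusted p = 0.993 by edgeR). Of the counts of both rows, the RTEL1 row received 7.0% (exact Clopper-Pearson 95% interval 4.95% to 9.56%) and 15.1% (12.1% to 18.5%) in WT, and 18.5% (15.1% to 22.2%) and 21.0% (18.2% to 24.0%) in KO. These intervals cover counting error only and not the error of dividing shared reads. The interval of WT replicate 2 overlapped both KO intervals, while that of WT replicate 1 lay below the other 3.

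Summed over both rows, the level was 39.6 and 42.3 CPM in WT and 44.5 and 45.9 CPM in KO. In a fit with the rows summed, added after the data were seen, the log2 fold change was 0.14 (SE 0.14; adjusted p = 0.683 by edgeR), and DESeq2 gave 0.15 (SE 0.22; adjusted p = 0.978). Both KO libraries still lay above both WT libraries. The nearly 2-fold ratio of the RTEL1 row was thus a ratio within a small share of the locus's counts. The pseudogene row RTEL1P1 had 4 to 10 counts and was not tested.

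**Figure D2:**
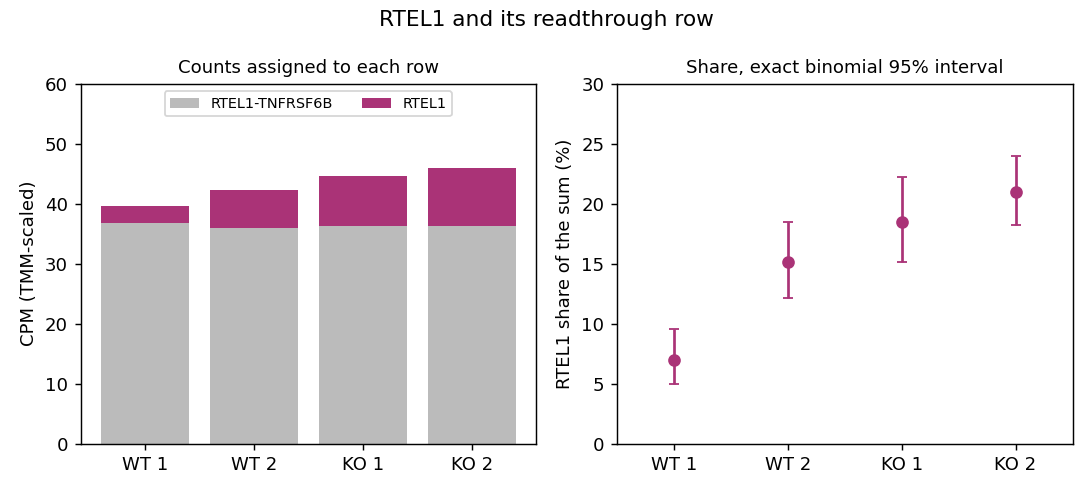
Left, stacked bars of the CPM assigned to RTEL1-TNFRSF6B (grey) and RTEL1 (purple) in each library; right, the percent of their summed counts assigned to RTEL1, with exact binomial 95% intervals. The readthrough row stays between 36.0 and 36.8 CPM while the RTEL1 share runs from 7.0% in WT replicate 1 to 21.0% in KO replicate 2.

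AQR, the intron-binding helicase, was the most abundant of the 6 by counts. It stood at 221.0 and 176.4 CPM in WT and at 151.4 and 171.2 CPM in KO. The KO libraries lay below both WT libraries, but WT replicate 2 and KO replicate 2 were 176.4 and 171.2 CPM, close to each other. The means were 198.7 ± 31.5 and 161.3 ± 14.0 CPM (SD, n = 2 each), a ratio of 0.812 with a 95% interval of 0.614 to 1.07 (log2 change of -0.30 with SE 0.16, adjusted p = 0.520 by edgeR and 0.779 by DESeq2). It was below 0 in all 17 alternatives, with -0.13 without WT replicate 1 and -0.44 without WT replicate 2. With library sizes taken as column sums and no scaling factor it was also -0.13; that setting moved the median of all tested genes from -0.01 to 0.14. Partners of AQR in the intron-binding complex did not pass either. ISY1 stood at 132.5 and 88.0 CPM in WT and at 94.3 and 94.9 CPM in KO (log2 fold change -0.22, SE 0.21), and PPIE, a cyclophilin, had a log2 fold change of -0.03 (SE 0.11). XAB2 had -0.03 as well, and ZNF830 was not tested, with at most 0.998 CPM. For all 3 tested genes the groups overlapped.

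RNASEH1, the single-chain enzyme, did not separate the groups. It stood at 16.0 and 9.83 CPM in WT and at 11.7 and 15.7 CPM in KO. The highest and the lowest value were both WT libraries. The means were 12.9 ± 4.38 and 13.7 ± 2.78 CPM (SD, n = 2 each), and the ratio of 1.06 had a 95% interval of 0.602 to 1.88 (log2 change of 0.09 with SE 0.32, adjusted p = 0.925 by edgeR). Of its 31-base words 16.5% occur in transcripts of other genes, most often in the pseudogenes RNASEH1P2 and RNASEH1P1, which were listed at 0 in all libraries. For PIF1 this share was 7.42%, with at most 2.02% in any 1 other gene. It was 1.86% for RNASEH2B, 1.23% for RNASEH2C and 0.605% for AQR.

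RNASEH2B and RNASEH2C, the accessory subunits of RNase H2, had at most 9.40 CPM in any library, a level not scaled by length. RNASEH2B had 91 and 46 counts in WT and 85 and 87 in KO, or 7.01 and 3.77 CPM against 7.68 and 5.11 CPM, so the groups overlapped. Its lowest library, WT replicate 2, had 46 counts with an exact Poisson 95% interval of 33.7 to 61.4, and that of WT replicate 1 was 73.3 to 112. The ratio was 1.18 with a 95% interval of 0.549 to 2.54 (log2 change of 0.24 with SE 0.43, adjusted p = 0.837 by edgeR). The antisense row RNASEH2B-AS1 had 2 to 12 counts. In GENCODE 29, RNASEH2B also overlaps the pseudogene GUCY1B2 on the opposite strand, which had 35 to 68 counts. RNASEH2C had 122 and 93 counts in WT and 95 and 130 in KO, or 9.40 and 7.62 CPM against 8.58 and 7.63 CPM. WT replicate 2 and KO replicate 2 were nearly equal. Its ratio was 0.952 with a 95% interval of 0.599 to 1.51 (log2 change of -0.07 with SE 0.26, adjusted p = 0.924 by edgeR). In GENCODE 29, RNASEH2C overlaps KAT5 on the opposite strand, which had 1488 to 2307 counts; the library kit keeps strand, but whether counting used it is not stated. The intervals of RNASEH1, RNASEH2B and RNASEH2C all contain ratios of KO to WT from 0.602 to 1.51, so ratios in that range are not excluded by these 4 libraries.

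**Figure D3:**
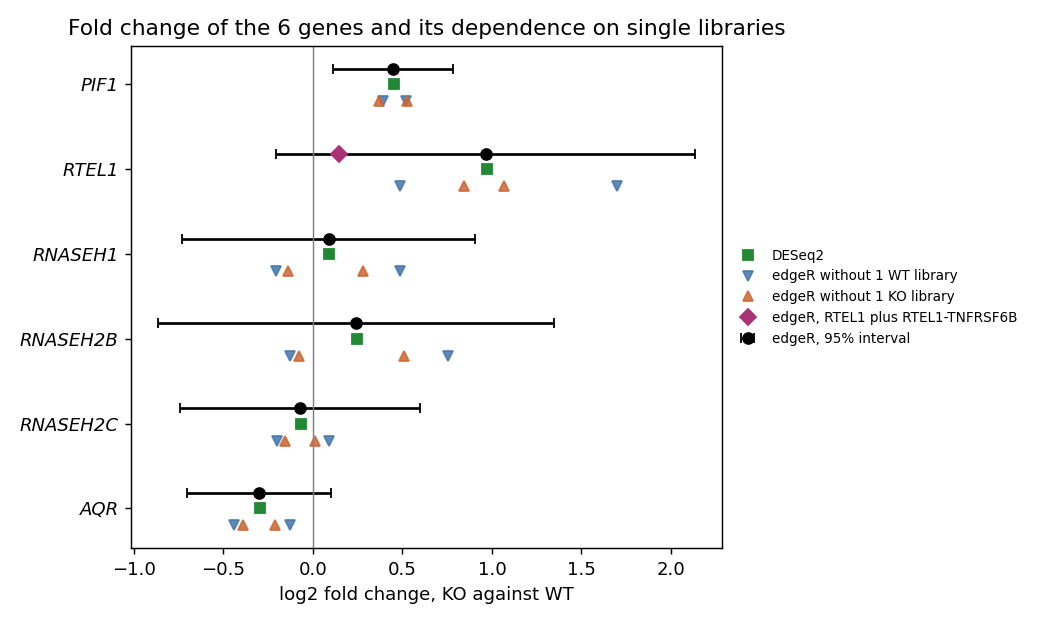
Log2 fold change of KO against WT (horizontal axis) for each of the 6 genes by edgeR with its 95% interval (black), by DESeq2 (green), and by edgeR with 1 WT (blue) or 1 KO (orange) library left out; the purple diamond is RTEL1 summed with RTEL1-TNFRSF6B. The PIF1 interval alone, 0.11 to 0.78, leaves out 0, and the RNase H genes change sign when single libraries are left out.

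Ratios of genes within a library do not depend on how libraries are scaled. Plain ratios of counts are given per library for 4 pairs, with the difference between groups on the log2 scale. The log2 ratios of 3 pairs were compared between groups by a two-sided exact permutation test. Its smallest possible p with 2 libraries against 2 is 0.333. RNASEH2B to RNASEH2C was 0.746 and 0.495 in WT and 0.895 and 0.669 in KO (log2 difference 0.35; exact permutation p = 0.667). PIF1 to RTEL1 was 23.5 and 9.22 in WT and 10.8 and 8.31 in KO (log2 difference -0.63; exact permutation p = 0.667), with WT replicate 1 far above the rest. This difference was 0.042 without WT replicate 1 and -1.31 without WT replicate 2. PIF1 to AQR was 0.295 and 0.334 in WT and 0.588 and 0.467 in KO. The log2 difference was 0.74; this pair was added because PIF1 was higher and AQR lower in both KO libraries, so that its separation is no further evidence and no test is given. RNASEH1 to RNASEH2C, also added after the data were seen, was 1.70 and 1.29 in WT and 1.37 and 2.05 in KO (log2 difference 0.18; exact permutation p = 0.667). Leaving out WT replicate 2 turned this difference to -0.024, and leaving out KO replicate 2 turned it to -0.12.

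Levels between genes can be set side by side only per length, and here the order depended on the length. The authors' deposited RPKM imply a gene length of 48.0 kb for AQR, 46.5 kb for RNASEH2B, 17.1 kb for RTEL1, 10.2 kb for RNASEH1, 4.31 kb for PIF1 and 3.32 kb for RNASEH2C. The exons annotated in GENCODE 29 cover 13.5, 26.3, 6.44, 2.87, 4.66 and 5.10 kb of these genes, in the same order. On the RPKM scale PIF1 was highest (12.9 to 21.9 over the libraries), then AQR (3.34 to 3.95), RNASEH2C (2.38 to 2.73), RNASEH1 (1.00 to 1.63), RTEL1 (0.136 to 0.596) and RNASEH2B (0.0834 to 0.175). RTEL1 and RNASEH2B overlapped, and the other neighbours did not. Per kb of annotated exons, with depth scaled as in RPKM, PIF1 (12.0 to 20.3) and AQR (11.9 to 14.0) overlapped, RNASEH1 (3.56 to 5.77) stood above RNASEH2C (1.55 to 1.78), RNASEH2C overlapped RTEL1 (0.369 to 1.58), and RNASEH2B was lowest (0.149 to 0.309). PIF1 had the highest mean and RNASEH2B the lowest on both scales, while RNASEH1 and RNASEH2C changed places.

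**Figure D4:**
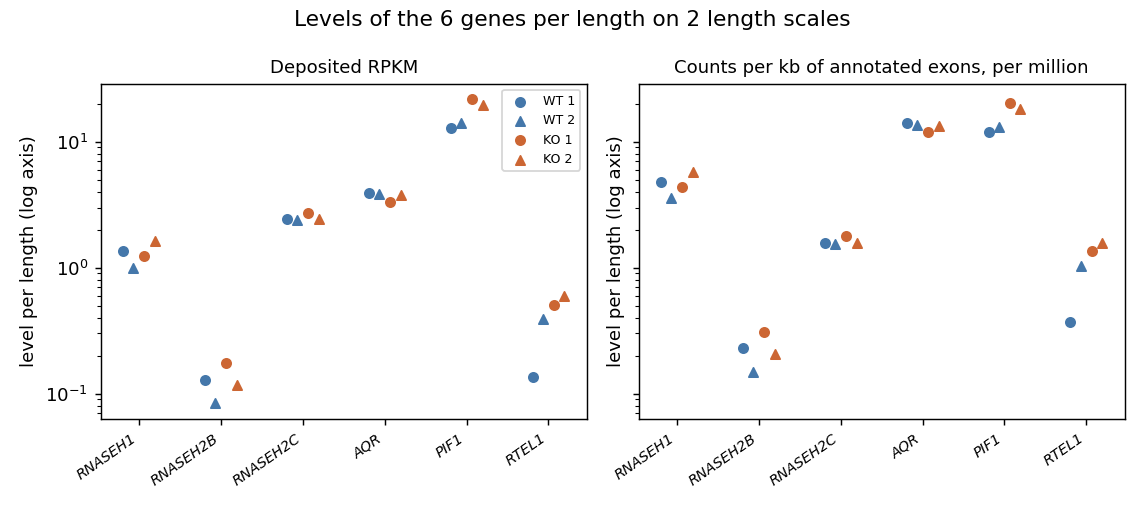
Level per length of the 6 genes in each library (circles, replicate 1; triangles, replicate 2; blue, WT; orange, KO) on log axes, with the length behind the deposited RPKM on the left and annotated exons on the right. RNASEH1 lies below RNASEH2C on the left and above it on the right.

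Genes that act with the 6 were described in 9 lists of 102 genes, of which 95 had a row and 89 were tested. By edgeR and by DESeq2 0 of these passed, and the smallest adjusted p were 0.349 for RFC5 in edgeR and 0.294 for DDX11 in DESeq2. At an unadjusted edgeR p under 0.05 there were 7 higher in KO, beside 4.97% of all tested genes, and 1 lower, beside 6.21%. The median log2 fold change of the 89 was 0.02. With single libraries left out of the edgeR fit, the medians of 6 of the 9 lists turned sign. These were ribonucleotide excision repair (-0.0088 without WT replicate 1), termination (-0.06 without WT replicate 2), the intron-binding complex (0.02 without WT replicate 1) and the helicases (-0.03 without KO replicate 2), with telomere and proliferation genes given below.

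Ribonucleotide excision repair follows the cut by RNase H2, and 9 of its 13 tested genes had a log2 fold change above 0 (median 0.07), beside 48.5% of all tested genes. RFC5, a subunit of the clamp loader, stood at 29.7 and 26.1 CPM in WT and at 18.7 and 15.9 CPM in KO (log2 change of -0.69 with SE 0.18, adjusted p = 0.349 by edgeR). POLD3, a subunit of DNA polymerase delta, stood at 10.9 and 7.21 CPM in WT and at 15.7 and 14.2 CPM in KO (0.72 with SE 0.28, adjusted p = 0.445 by edgeR). Among other genes of Aicardi-Goutieres syndrome and nucleic acid sensing, 4 of 9 were tested (median 0.12). With every library kept, this median was -0.115 with limma-voom and -0.105 with the replicate number as a block. ADAR stood at 12.0 and 12.5 CPM in WT and at 2.53 and 18.8 CPM in KO, so its KO libraries lay far apart (SE 0.845 by edgeR). The other tested genes stood at 3.43 CPM or less. TREX1, a DNA exonuclease, had 0 and 1.23 CPM in WT and 2.44 and 1.94 CPM in KO (adjusted p = 0.591 by edgeR). IFIH1, an RNA sensor, had a log2 fold change of -0.65 (adjusted p = 0.617 by edgeR).

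Termination factors and proteins that bind XRN2 had a median of 0.02 over 13 tested genes. CPSF4, a cleavage factor subunit, had 0.32 (SE 0.12; adjusted p = 0.450 by edgeR). The 16 tested other R-loop factors had a median of 0.03, with 9 above 0. THOC1, of the THO complex that coats nascent mRNA, stood at 28.6 and 36.8 CPM in WT and at 46.3 and 48.5 CPM in KO (0.54 with SE 0.18, adjusted p = 0.410 by edgeR).

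DNA helicases related to PIF1 and RTEL1 had a median of 0.02 over 12 tested genes, 6 on each side of 0. DDX11, an iron-sulfur helicase like RTEL1, stood at 104.9 and 144.3 CPM in WT and at 181.5 and 177.7 CPM in KO, with no overlap (log2 change of 0.53 with SE 0.18, adjusted p = 0.412 by edgeR and 0.294 by DESeq2). RECQL5 had 0.33 (SE 0.14; adjusted p = 0.475 by edgeR). The 7 telomere genes had a median of 0.17, which was 0.0058 and 0.07 without WT replicates 1 and 2 and 0.0029 and -0.27 without KO replicates 1 and 2. The smallest p were those of TERT, the catalytic subunit of telomerase (0.64 with SE 0.37, adjusted p = 0.538 by edgeR), and ACD, a shelterin subunit (-0.71 with SE 0.42, adjusted p = 0.549 by edgeR).

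Genes of mitochondrial DNA replication and transcription, where RNASEH1 and PIF1 also act, had a median of 0.22, with 7 of 9 above 0. MGME1, a mitochondrial nuclease, stood at 13.7 and 13.8 CPM in WT and at 17.9 and 22.4 CPM in KO (log2 change of 0.55 with SE 0.20, adjusted p = 0.432 by edgeR). TFAM, which packages mitochondrial DNA, had -0.43 (SE 0.17; adjusted p = 0.450 by edgeR). Proliferation genes were included because PIF1 is known to be made in cycling cells. Their median was -0.06 over 13 tested genes, 5 above 0 and 8 below, and it turned to 0.05 without WT replicate 1, to 0.11 without KO replicate 1 and to 0.095 with column sums. CDK1 stood at 101.4 and 86.7 CPM in WT and at 113.9 and 128.2 CPM in KO (0.36 with SE 0.14, adjusted p = 0.445 by edgeR), and CCNB1 at 1258 and 761.2 CPM against 766.0 and 773.8 CPM (-0.39 with SE 0.26, adjusted p = 0.574 by edgeR). The summed level of the list was 2406 to 3304 CPM in WT and 2607 to 2649 CPM in KO, both KO values lying between the WT values.

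**Figure D5:**
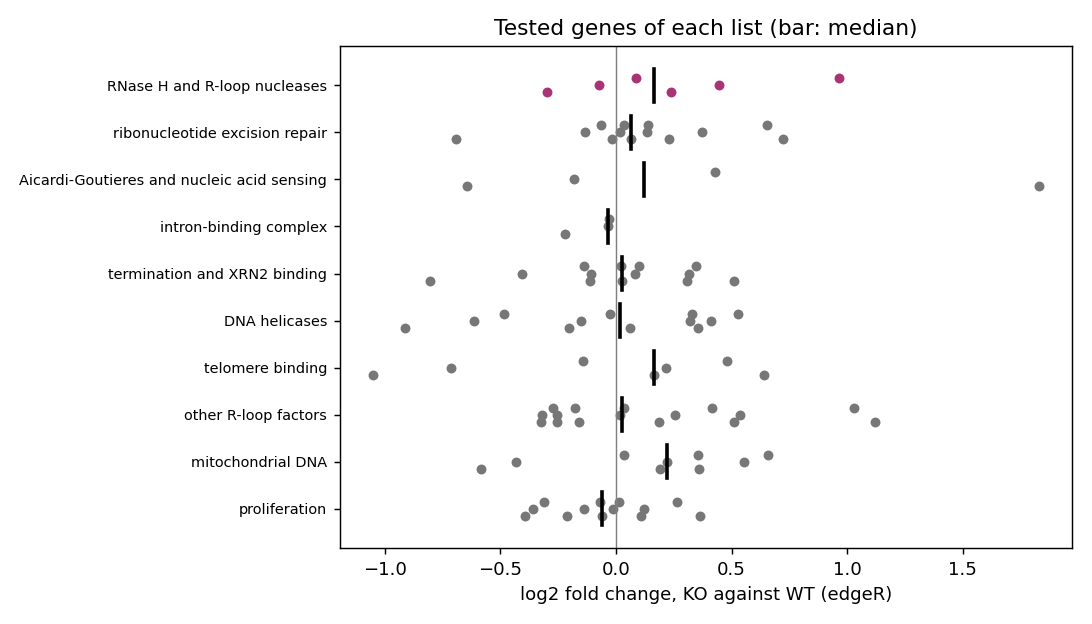
Log2 fold change by edgeR (horizontal axis) of each tested gene in the 9 lists (grey) and of the 6 RNase H and R-loop genes (purple), with the list median as a bar; vertical offsets only separate points. List medians run from -0.06 to 0.22 and points of every list but the intron-binding complex lie on both sides of 0.

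The genes whose 4 levels most resembled each member were found by the root mean square distance of log2 CPM, centred on each gene's mean, over 4 libraries and among genes within 2-fold of its mean level. For PIF1 these were SLC25A32 (distance 0.0285) and C11orf68 (0.0406), and 52 of 2756 candidates lay within 0.1. For AQR they were HIF1A (0.0171) and USP32 (0.0195), with 201 of 1648 within 0.1. For RTEL1 they were LINC00923 (0.0160) and HHLA1 (0.0450), and 7 of 2960 lay within 0.1. LINC00923 had 2.77 and 6.47 CPM in WT and 8.22 and 9.45 CPM in KO. RNASEH2C was nearest to PINX1 (0.0105) and LRRC28 (0.0302), RNASEH2B to DPAGT1 (0.0189) and R3HCC1 (0.0509), and RNASEH1 to BAHCC1 (0.0617) and STX18 (0.0793). With 4 libraries such likeness is a description only.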

How the data were processed

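Per gene, the authors deposited estimated counts and RPKM values of all 4 libraries. The submitters' processing notes name Salmon 1.10.1 and hg19. Which annotation and gene lengths were used, and whether rows were filtered, is not given in the sources used here. Total RNA was depleted of ribosomal RNA and made into stranded libraries, per the labels' protocols. The deposited expected counts are whole numbers and were treated as rounded estimates. The deposited RPKM values are per kb of a length set by the authors. 1 row is named differently in the 2 tables, so that gene (E2F1 in the counts) was left out of the proliferation list.

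Counts were tested with edgeR 4.0.16 (limma 3.58.1, R 4.3.3): TMM factors, filterByExpr, glmQLFit and glmQLFTest on genotype, with Benjamini-Hochberg adjustment over all tested genes and a threshold of 0.05. The standard error is the log2 fold change divided by the square root of F, and 95% intervals use the test's degrees of freedom. DESeq2 1.42.0 was the first alternative. The steps were tested on simulated data. Coordinates and sequences are RefSeq's (GRCh38.p14, 6 of 6 members matched), and exons and 31-base words are from GENCODE 29. No coordinates of the authors' build are given. Same-numbered libraries are not said to share a culture, so no pairing was used. Replicates differed beyond counting noise (chi-square per degree of freedom 33.5 in WT and 12.4 in KO). Expected counts for this came from column sums without TMM factors. Unequal factors therefore enter it, and they were 0.858 and 1.04 in WT and 1.06 in both KO libraries. The members, lists and alternatives were chosen with earlier results of these data known. Named genes were the members, TOP3B, rows named after a member, the called genes or else the 2 of smallest p in each list, and the 2 nearest genes by pattern. XAB2, ZNF830, KAT5, GUCY1B2, KRT18, KRT19, VIL1 and ADAR are named outside this rule, after their values were seen. One gene that this rule names is not reported here.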

Additional observations from a re-analysis of the deposited data

How the results depend on the processing

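No member passed the threshold under any of the 17 alternatives, which were the planned ones and DESeq2 with each library left out, added after the data were seen. PIF1 and RTEL1 stayed above 0 and AQR below 0 in all 17. With 1 library left out, edgeR gave -0.21 to 0.48 for RNASEH1 (main value 0.09; below 0 without WT replicate 2 and, at -0.14, without KO replicate 2), -0.13 to 0.76 for RNASEH2B (0.24; below 0 without WT replicate 2 and, at -0.08, without KO replicate 1) and -0.20 to 0.089 for RNASEH2C (-0.07; above 0 without WT replicate 1 and, at 0.01, without KO replicate 2). DESeq2 without the same libraries turned too, to -0.21 and -0.13 for RNASEH1, -0.13 and -0.061 for RNASEH2B, and 0.093 and 0.02 for RNASEH2C. RNASEH2C also turned to 0.10 with column sums and to 0.10 and 0.072 with limma on log2(RPKM + 0.1) and log2(RPKM + 1). Those settings used every library but no TMM factor. In them the median of all tested genes was 0.14, 0.11 and 0.04, in the same order, against -0.01 in the main fit. The median of the 6 ranged from -0.16 to 0.48 when 1 library was left out (DESeq2 -0.17 to 0.49), the ends being WT replicates 2 and 1. A group left with 1 library was assumed to vary like the other group. The cause of the changes with 1 library left out was not tested, beyond there being fewer libraries. For the turns of RNASEH2C with every library kept, the cause was not tested either. Over all genes 187 were called by DESeq2, 42 with column sums (15 higher, 27 lower), 34 without a filter, 6 and 0 with limma on log2(RPKM + 0.1) and + 1, 0 to 575 by edgeR with 1 library left out, and 85, 721, 75 and 72 by DESeq2 without WT replicates 1 and 2 and KO replicates 1 and 2. With the replicate block 1 gene and 0 members were called and PIF1 had 0.45 (adjusted p = 0.435); with the crossed replicate block 0 genes were called. The deviations of same-numbered libraries correlated at 0.0512 across genes, so the numbers were not taken to pair the samples. Of 153 list medians under alternatives 53 moved by more than the spread between replicates, and of 162 list counts 9 differed from 0. Planned ratios with RNASEH2A or XRN2 were not run. RNASEH2B and RTEL1 had the lowest WT counts of the 6, from 36 to 91. As raw counts, not scaled for the unequal depth of the libraries, the exact Poisson intervals of WT replicates 1 and 2 did not overlap for either gene. They were 25.2 to 49.8 and 61.7 to 97.3 counts for RTEL1, and 73.3 to 112 and 33.7 to 61.4 for RNASEH2B. How far depth limits these genes was not tested.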
